A study of Mus musculus with 20 samples.

Results

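The genes described here are cytosolic translation initiation and elongation factors of the mouse and a few proteins named after them. They were taken as every gene with a probe set of its own whose symbol begins with Eif or Eef. The Eif2ak kinases and Eef2k, which act on these factors and are not factors themselves, were left out. Factors without a probe set of their own, such as Eif1, Eif2s1, Eif3g, Eif4g1 and Eef1g, are not covered. The name rule found 57 symbols with a probe set of their own, and 56 of them, among 15272 genes in all, were kept by a filter on low values, which asked for a level above the 40th percentile of an array on 2 or more of the 20 arrays. RNA had been measured on Affymetrix whole-transcript arrays in a study of UBF, the architectural factor of ribosomal RNA gene chromatin that is encoded by Ubtf, also called Ubf. The 4 lines were primary mouse embryo fibroblasts (MEFs) and MEFs immortalized with SV40 Tt (iMEFs), each either Ubf fl/fl or Ubf wt/wt, all from E14.5 embryos and all carrying Er-cre+/+, a tamoxifen-dependent Cre recombinase. Every line, the wt/wt controls included, received 50 nM 4-hydroxytamoxifen (4-HT) for 4 h, which activates Cre, and RNA was taken at 0, 24, 48, 72 and 96 h post 4-HT treatment (pHT). There was 1 array for each line and time and no replicate, and each genotype of each cell type was represented by 1 line, so the p-values below measure only the scatter between times of a line or between the 4 lines. All levels are the deposited log2 values, on which a difference of 1 is a doubling. A level was compared between arrays for the same probe set and never between genes.

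Initiation begins when eIF2 carries the initiator tRNA to the small ribosomal subunit, where eIF1, eIF1A, eIF3 and eIF5 help to select the start codon, and eIF2B then recharges eIF2 with GTP. The mRNA is brought in by its cap through eIF4E, the scaffold eIF4G and the helicase eIF4A, and the 4E-binding proteins compete with eIF4G for eIF4E. eIF5B joins the subunits, eIF6 keeps free large subunits from joining too early, eEF1A delivers aminoacyl-tRNAs, the eEF1B subunits recharge it and eEF2 moves the ribosome along. Many mRNAs of elongation factors and some of initiation factors begin with a terminal oligopyrimidine (TOP) tract, through which mTOR controls their translation rather than their amount.

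The annotated transcript starts of 9 members are shown because the results below turn on them or because they are known TOP mRNAs. Each line gives 30 bases, 5′ to 3′, with 10 bases before the start base, from the RefSeq promoter sequences of assembly GRCm38.p6. Capitals mark the unbroken run of C and T that begins at the annotated start base, and a sequence without capitals has another base there.
Eef1a1: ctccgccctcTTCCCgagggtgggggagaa
Eef1b2: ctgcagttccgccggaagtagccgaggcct
Eef2: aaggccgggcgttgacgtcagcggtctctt
Eif3f: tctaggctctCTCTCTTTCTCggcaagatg
Eif4b: tcccgtcggaCgccgcgccaccccctcgcg
Eif4a1: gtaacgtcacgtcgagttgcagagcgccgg
Eif4a2: gaaaccccgtaggagcagggcggccgagga
Eif2s3x: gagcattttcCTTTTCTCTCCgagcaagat
Eif2s3y: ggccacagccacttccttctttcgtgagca
In the same order the windows lie at chr9:78481705-78481734 (-), chr1:63176821-63176850 (+), chr10:81176621-81176650 (+), chr7:108934405-108934434 (+), chr15:102073763-102073792 (+), chr11:69672404-69672433 (-), chr16:23107458-23107487 (+), chrX:94212632-94212661 (-) and chrY:1010585-1010614 (+). Of the 56 members, 43 had a promoter entry. A C followed by 4 pyrimidines at the annotated start was found in 2 of them, Eif2s3x and Eif3f, which is 4.65% of members against 2.49% of the 27025 genes with an entry. The annotated starts of Eef1a1, Eef1b2, Eef2 and Eif4b, known TOP mRNAs, did not carry such a run in this window. That of Eef1a1 had a run of 5 pyrimidines that began with T. Other letters were searched over the whole entry of 300 bases, 250 before the start and 50 from it, and on both strands. The 27025 genes were taken whether or not they passed the filter on low values, so their shares are not like for like with those of the members. The letters CCGGAA (the core of ETS family sites) were present in 20 of 43 members (46.5%) and in 15.2% of the genes with an entry. The E-box letters CACGTG, which MYC can bind, were present in 9 members (20.9%) and in 7.24% of the genes with an entry. The GC-box letters GGGCGG were present in 32 members (74.4%) against 35.9%, and the TATA-box letters TATAAA in 4 (9.3%) against 14.2%. The promoter table lists no entry for Eef1akmt1, Eef1akmt3, Eef1d, Eif1a, Eif2b3, Eif3e, Eif3h, Eif3i, Eif4e1b, Eif4e3, Eif4ebp1, Eif4g2 and Eif6.

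The targeted gene itself did not pass the test. The level of Ubtf ranged from 9.49 to 10.75, and the late effect defined below came to 0.13 ± 0.18 (SE, adjusted p = 0.703) for iMEFs and 0.36 ± 0.18 (adjusted p = 0.718) for MEFs, but where its probes lie relative to the deleted part is not known, so this does not check the deletion. Array medians ran from 7.96 to 8.16 in iMEFs and from 8.18 to 8.34 in MEFs, and setting every array to the same median moved the median of all genes by 0.17 in the late effect in iMEFs and by 0.23 between the cell types. The interquartile range of the genes on an array ran from 2.25 to 2.82 in iMEFs and from 2.61 to 2.82 in MEFs. In iMEFs it was widest in fl/fl at 24 h (2.82) and narrowest at 96 h (2.25 in fl/fl and 2.36 in wt/wt). Setting medians equal does not change this spread. Within their own lines 3 arrays stood apart: each was the highest (iMEF fl/fl at 24 h) or the lowest (MEF fl/fl at 96 h and MEF wt/wt at 0 h) for all 8 of the members that were lowest in iMEFs. The 24 h array of iMEF fl/fl was the highest of its line for 32 of 56 members and for 4680 of 15272 genes. The 96 h array of MEF fl/fl was the lowest of its line for 25 members and 4021 genes, and the 0 h array of MEF wt/wt was the lowest for 18 members and the highest for 24. The 96 h arrays of both iMEF lines were also often the lowest, for 27 members in fl/fl and 24 in wt/wt. The largest results that rest on these arrays are given with and without them. The cell type labels met their markers in part. Of 10 fibroblast markers, 9 were lower in iMEFs, with Dcn lower by 5.71 on the log2 scale and Lum by 5.33. Macrophage markers were seen in both MEF lines. Their median level was 9.61 to 10.09 over the arrays of MEF fl/fl, 8.53 to 9.32 in MEF wt/wt and 5.91 to 6.43 in iMEFs. In such bulk samples fewer cells of a type and less RNA per cell cannot be told apart.

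**Figure D1:**
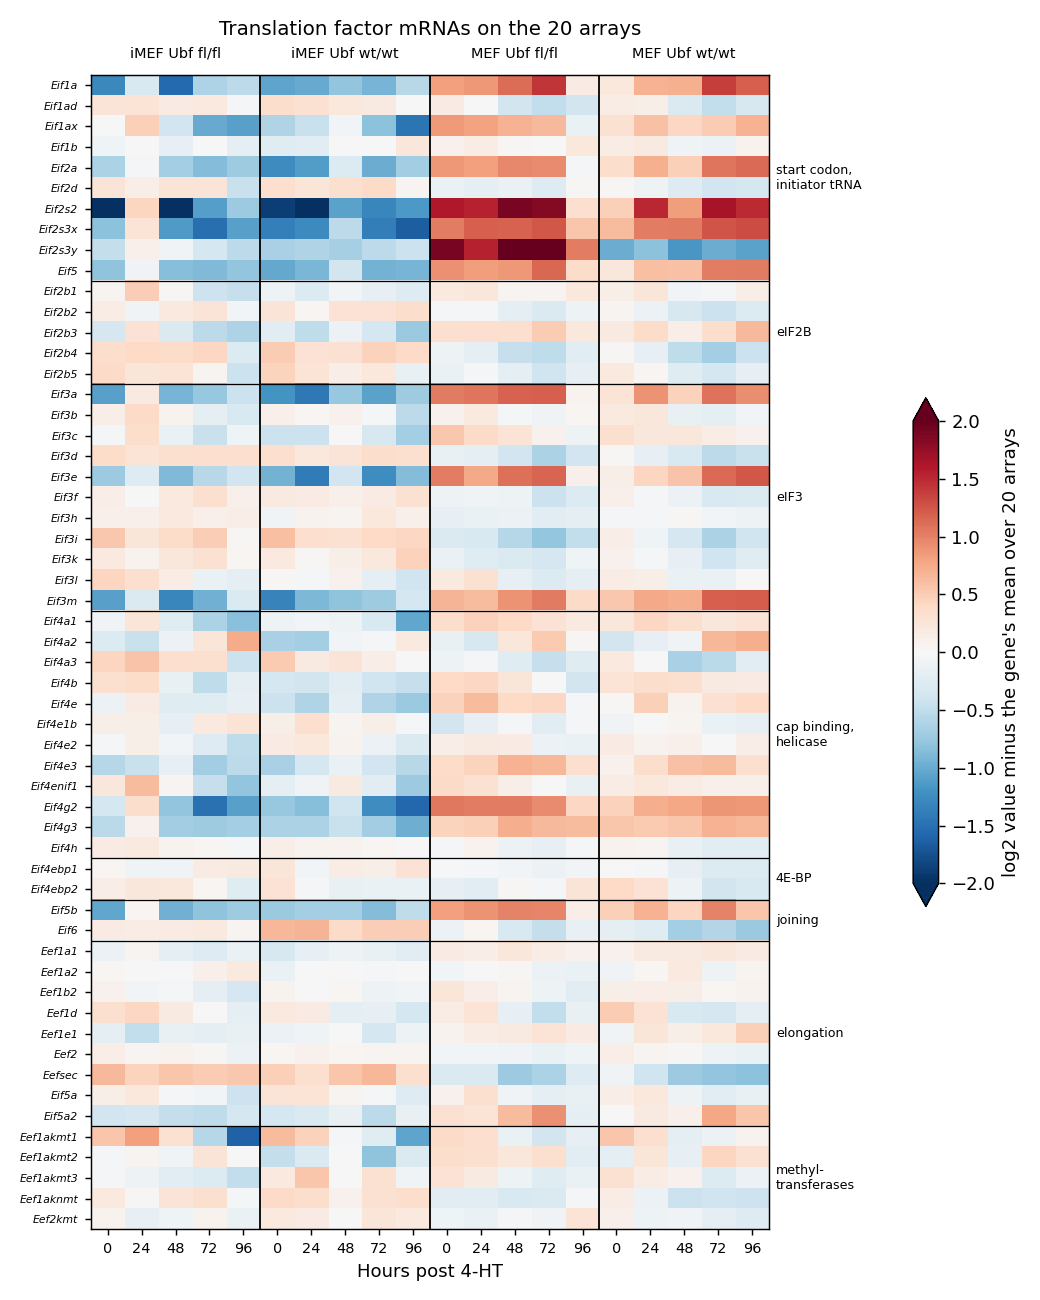
Level of each of the 56 members on each of the 20 arrays, as the deposited log2 value minus the mean of that gene over the 20 arrays, with colours ending at 2 above and below the mean. Rows are genes grouped by role and columns are the 4 lines, each with its times in h. In the role of start codon and initiator tRNA, Eif2s2, Eif2s3x and Eif1a were lower in iMEFs, and Eif2s3y stood out in the MEF fl/fl line.

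The first question was whether any factor responded to loss of UBF. The late effect was taken as the change from the early times (0 and 24 h) to the late times (48, 72 and 96 h) in the fl/fl line minus that in the wt/wt line of the same cell type, and its test pooled the spread over both cell types. The fit held a term for each time, so it compared the fl/fl and wt/wt arrays of a time as a pair, and leaving out 1 array of a pair takes the other out of the effect with it. Values without a single array are therefore given from a fit without these terms, in which the effects over all arrays are the same. Of the 56 members, 0 passed the test (limma, Benjamini-Hochberg adjusted p under 0.05 over all genes) in iMEFs, where 0.223% of all genes did, and 0 in MEFs, where 0% of all genes did. The effect averaged over both cell types and the difference between them also gave 0 members, with 0% of all genes in each. At an unadjusted p under 0.05 there were 9 members (16.1%) in iMEFs, against 22.1% of all genes, and 2 (3.57%) in MEFs, against 6.89%. The average gave 12 members (21.4%), against 23.2% of all genes, and the difference gave 3 (5.36%), against 7.44%. The median late effect of the members was -0.14 in iMEFs, against -0.04 over all genes, and -0.05 in MEFs, against 0.06. With the filter at the 60th percentile the members and all genes had medians of -0.14 and -0.13 in iMEFs, and of -0.07 and 0.04 in MEFs. Without the 24 h arrays both medians in iMEFs were -0.06. In iMEFs 41 of 56 members were below 0 (73.2%, against 53.6% of all genes). Only 26 were once every array had been set to the same median, where the medians were 0.04 for members and 0.14 for all genes. In MEFs 31 of 56 were below 0 (55.4%, against 40.8% of all genes). The median SE of a member was 0.19. Markers of cell state moved in the same contrasts, although none passed the test. All 15 proliferation markers were below 0, with a median of -0.46 in iMEFs and -0.66 in MEFs, and macrophage markers were above 0 for 9 of 10 in iMEFs (median 0.25) and 10 of 10 in MEFs (median 0.63). Their part in the late effects of the members was not tested.

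**Figure D2:**
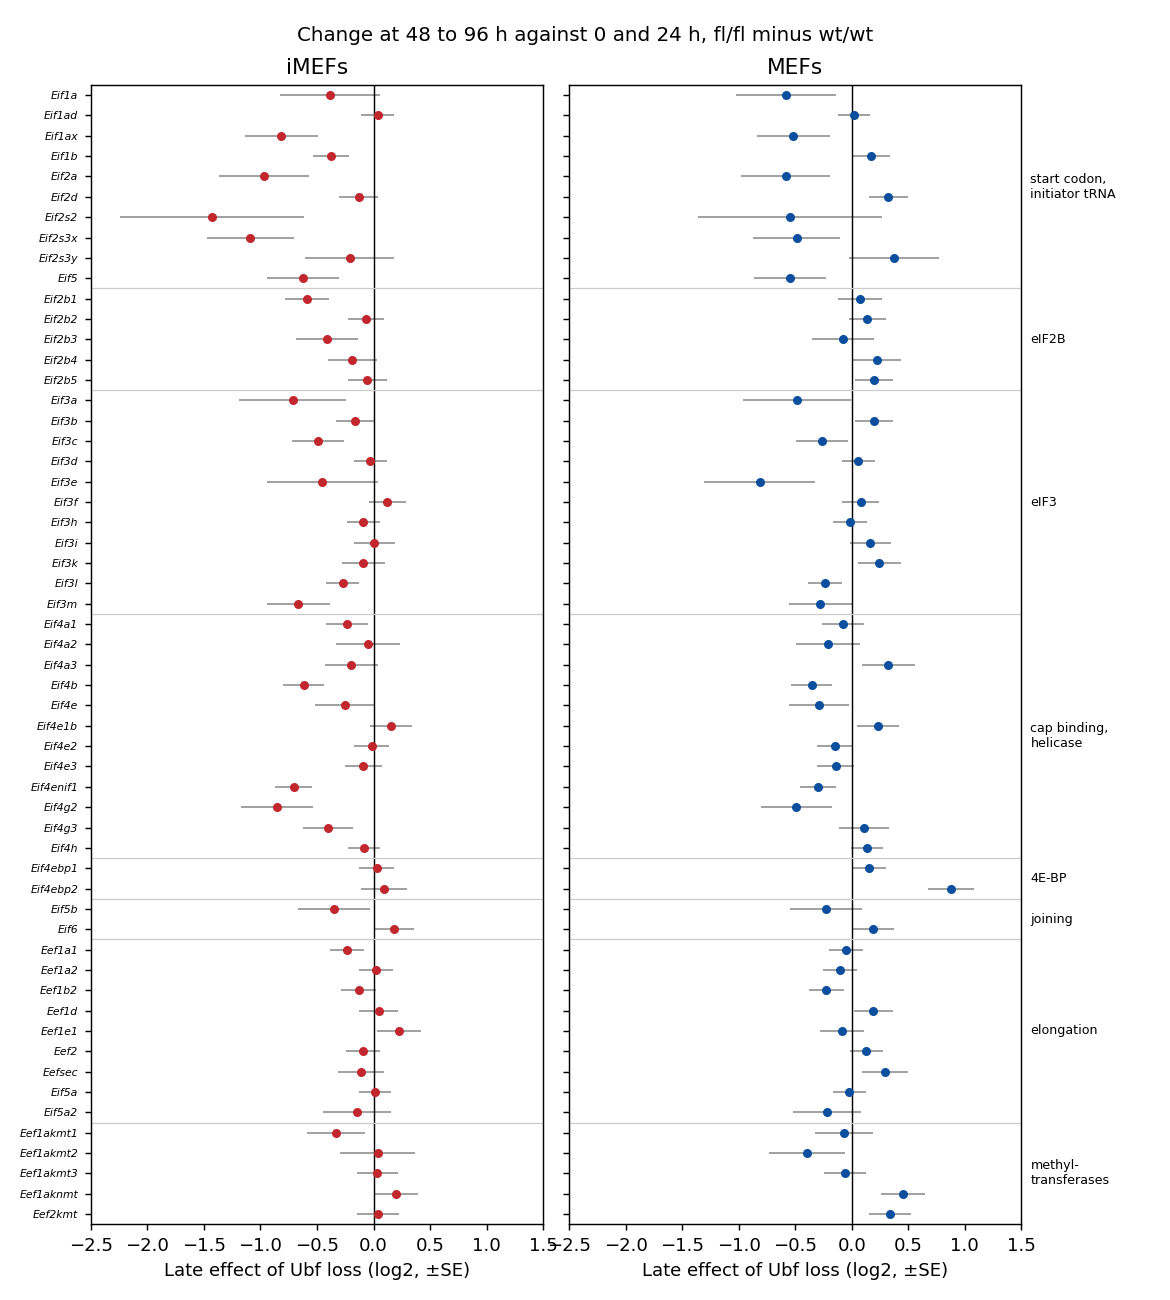
Late effect of the floxed genotype for each member in iMEFs and in MEFs, on the log2 scale, with bars of 1 SE. None of the 56 members passed the test in either cell type, and Eif2s2, the furthest from 0 in iMEFs, lies at -1.43 ± 0.82.

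Among the factors of the start codon and the initiator tRNA, the lowest late effect in iMEFs was that of Eif2s2, the beta subunit of eIF2. Its levels at 0, 24, 48, 72 and 96 h were 6.37, 8.81, 6.38, 7.27 and 7.65 in iMEF fl/fl and 6.50, 6.04, 7.31, 7.07 and 7.23 in iMEF wt/wt. The fl/fl array at 24 h was above every other iMEF array, and the remaining arrays of both lines overlapped. The late effect was -1.43 ± 0.82 (adjusted p = 0.322) and became -0.21 without that array, or 0.02 without both 24 h arrays. A second probe set of Eif2s2 gave -0.73. In MEFs the levels were 9.98, 9.92, 10.27, 10.22 and 8.70 in fl/fl and 8.86, 9.89, 9.21, 10.02 and 9.87 in wt/wt, with the lowest values in the fl/fl line at 96 h and in the wt/wt line at 0 h. The late effect in MEFs was -0.55 ± 0.82, -0.03 without either of these arrays alone and 0.49 without both. Eif2s3x, the X-linked gene of the gamma subunit, had levels of 10.09, 11.18, 9.78, 9.39 and 9.83 in iMEF fl/fl and 9.55, 9.64, 10.38, 9.52 and 9.25 in iMEF wt/wt, again highest in the fl/fl line at 24 h, and its late effect was -1.09 ± 0.38 (adjusted p = 0.147) with that array and -0.55 without it. Eif2a, which can bring initiator tRNA to some mRNAs without eIF2, had a late effect of -0.97 ± 0.39 in iMEFs (adjusted p = 0.189; -0.67 without the 24 h array of fl/fl) and of -0.58 ± 0.39 in MEFs (-0.25 without the 96 h array of fl/fl), where it was the lowest of its role. At the upper end of this role were Eif1ad at 0.04 in iMEFs and Eif2s3y, the Y-linked gene of the gamma subunit, at 0.38 in MEFs, with its wt/wt values near the floor of the arrays. The 5 subunit genes of eIF2B all lay between -0.59 (Eif2b1) and -0.05 (Eif2b5) in iMEFs, and between -0.08 (Eif2b3) and 0.22 (Eif2b4) in MEFs. None of these passed the test.

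The subunits of eIF3, the scaffold on the small subunit, ranged from -0.72 (Eif3a) to 0.12 (Eif3f) in iMEFs and from -0.82 (Eif3e) to 0.24 (Eif3k) in MEFs. The late effect of Eif3a in iMEFs was -0.09 without the 24 h array of fl/fl and 0.03 without both 24 h arrays. That of Eif3e in MEFs was -0.48 without the 96 h array of fl/fl, -0.65 without the 0 h array of wt/wt and -0.31 without both. The levels of Eif3a were 7.71, 8.97, 7.86, 8.04 and 8.37 in iMEF fl/fl against 7.59, 7.37, 8.03, 7.72 and 8.08 in iMEF wt/wt, with 24 h the highest of the fl/fl line. In the group of cap binding and helicase factors the lowest adjusted p of any member in iMEFs was found. This was Eif4enif1, the eIF4E transporter that carries eIF4E into the nucleus and to P-bodies. Its levels were 9.33, 9.73, 9.15, 8.63 and 8.30 in iMEF fl/fl and 8.91, 9.02, 9.28, 8.88 and 8.37 in iMEF wt/wt. The fl/fl line went from above the wt/wt line at 0 and 24 h to below it from 48 h on, although the ranges of both lines overlapped. The late effect was -0.71 ± 0.16 (adjusted p = 0.0683), and that for MEFs was -0.30 ± 0.16 (adjusted p = 0.718). Against 0 h alone, the Eif4enif1 change in iMEF fl/fl minus that in iMEF wt/wt was -0.54, -0.66 and -0.48 at 48, 72 and 96 h. Eif4b, a cofactor of the helicase and a TOP mRNA, had 11.76, 11.81, 11.29, 10.93 and 11.26 in iMEF fl/fl and 11.10, 11.07, 11.21, 11.05 and 10.98 in iMEF wt/wt. It was higher in the fl/fl line at 0 and 24 h than on any other iMEF array, and the late effect was -0.62 ± 0.18 (adjusted p = 0.102). Eif4g2, an eIF4G relative that does not bind eIF4E, was at -0.85 ± 0.32 in iMEFs (adjusted p = 0.163; -0.50 without the 24 h array of fl/fl) and -0.49 in MEFs (-0.30 without the 96 h array of fl/fl), the lowest of this role in both. The highest of this role were Eif4e1b at 0.15 in iMEFs and Eif4a3, a helicase of the exon junction complex, at 0.32 in MEFs.

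These late effects moved with single times and arrays. Without the 96 h arrays 7 members fell in iMEFs, namely Eif1ax, Eif2s3x, Eif3c, Eif3m, Eif4b, Eif4enif1 and Eif4g2, as did 1281 of the 15272 genes (8.39%). Without the 96 h array of MEF fl/fl, which enters through the pooled spread, 3 members fell there, namely Eif2a, Eif4b and Eif4enif1, as did 785 genes (5.14%). Without the 24 h array of iMEF fl/fl 0 members passed. Without the terms for time 0 members and 0 genes passed in either cell type.

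The 4E-binding proteins, which are inhibitors of cap-dependent initiation, gave the largest late effect in MEFs. Eif4ebp2 levels were 10.93, 10.89, 11.12, 11.08 and 11.35 in MEF fl/fl and 11.50, 11.39, 11.004, 10.73 and 10.79 in MEF wt/wt. The wt/wt line was the higher at 0 and 24 h and the lower from 48 h on. The late effect was 0.88 ± 0.20 (adjusted p = 0.636) and 0.79 without the 96 h array of MEF fl/fl. In iMEFs it was 0.09 ± 0.20 (adjusted p = 0.823). Eif4ebp1 lay at 0.03 ± 0.15 in iMEFs and 0.15 ± 0.15 in MEFs. Of the subunit joining pair, Eif5b was at -0.35 and -0.23, and Eif6 at 0.18 and 0.19, in iMEFs and MEFs.

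The elongation factors had small late effects. In iMEFs they ran from -0.23 for Eef1a1, the major tRNA carrier, to 0.23 for Eef1e1, a component of the tRNA synthetase complex. In MEFs they ran from -0.22 for Eef1b2, an exchange factor of eEF1A, to 0.29 for Eefsec, the factor that delivers selenocysteine tRNA. The paralog Eef1a2, the eEF1A form of muscle and neurons, was at 0.02 in iMEFs and -0.11 in MEFs. Eef1a1 levels stayed between 13.27 and 13.63 in iMEFs and between 13.66 and 13.80 in MEFs, and Eef2 levels between 13.29 and 13.56 over all 20 arrays. Eef2 also carries Snord37 in an intron, a box C/D snoRNA that guides methylation of ribosomal RNA. Snord37 had levels of 6.69, 5.89, 7.03, 7.71 and 7.20 in iMEF fl/fl and 7.48, 7.04, 6.47, 6.81 and 7.73 in iMEF wt/wt, which overlapped. Its late effect did not pass, at 1.27 ± 0.42 (adjusted p = 0.131) for iMEFs and 0.76 ± 0.42 (adjusted p = 0.718) for MEFs. Snora41, in an intron of Eef1b2, was at 4.76 to 5.52 and did not pass the filter. The methyltransferases of the elongation factors ran from -0.33 (Eef1akmt1) to 0.20 (Eef1aknmt) in iMEFs and from -0.39 (Eef1akmt2) to 0.45 (Eef1aknmt) in MEFs.

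The second question was how the factors moved over the days after treatment, whatever the genotype. The change with time was the late minus the early mean, averaged over the fl/fl and wt/wt lines of a cell type. In iMEFs 1 of 56 members rose, where 1.3% of all genes did, and 2 fell, where 0.864% did. In MEFs 1 member rose, where 5.65% of all genes did, and 9 fell, where 7.18% did. At an unadjusted p under 0.05 there were 19 members (33.9%) in iMEFs, against 18.8% of all genes, and 20 (35.7%) in MEFs, against 24.7%. The count in iMEFs was 0 without the 24 h array of iMEF fl/fl and 1 without the 0 h array of MEF wt/wt, which enters through the pooled spread. The median change of the members was -0.10 in iMEFs and -0.13 in MEFs, against 0.00 over all genes in both. In each cell type 37 of 56 members were below 0 (66.1%), against 50.3% of all genes in iMEFs and 49.0% in MEFs. The difference between the cell types passed for 0 members, against 3.35% of all genes, and at an unadjusted p under 0.05 for 10 (17.9%), against 16.7% of all genes, so no member was shown to change differently in the 2 cell types.

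Eif4a2, the eIF4A form known from cells that divide slowly, rose in both. Its levels at 0, 24, 48, 72 and 96 h were 9.76, 9.58, 9.92, 10.28 and 10.77 in iMEF fl/fl and 9.38, 9.35, 9.98, 9.99 and 10.22 in iMEF wt/wt. They were 9.89, 9.71, 10.25, 10.56 and 10.05 in MEF fl/fl and 9.67, 9.87, 9.96, 10.69 and 10.75 in MEF wt/wt. In every line each array at 48 to 96 h was above both arrays at 0 and 24 h. Eif4a2 changed by 0.68 ± 0.17 (adjusted p = 0.0436) in the iMEF lines and by 0.59 ± 0.17 (adjusted p = 0.0264) in the MEF lines. The call in MEFs was lost without the 0 h array of MEF wt/wt, and neither MEF line gave it alone. The call in iMEFs held with every array set to the same median, where 4 members passed, but not after quantile normalization, where 2 did, Eef1akmt1 and Eif5a. Its paralog Eif4a1, the eIF4A form of growing cells, had 12.70, 13.01, 12.52, 12.13 and 11.94 in iMEF fl/fl and 12.68, 12.72, 12.66, 12.46 and 11.73 in iMEF wt/wt, lowest at 96 h in both. The change of Eif4a1 in iMEFs was -0.53 ± 0.15 and missed the threshold (adjusted p = 0.0727). It passed once every array had been set to the same median, and its 3 probe sets gave -0.53, -0.52 and -0.53. In MEFs Eif4a1 changed by -0.08 ± 0.15 (adjusted p = 0.849), with levels of 13.12, 13.23, 13.16, 13.06 and 12.94 in fl/fl and 12.99, 13.18, 13.09, 12.996 and 13.05 in wt/wt.

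Eef1d, the exchange factor subunit of eEF1B and a TOP mRNA, fell in both. Its levels were 9.32, 9.42, 9.18, 8.998 and 8.82 in iMEF fl/fl and 9.20, 9.17, 8.82, 8.84 and 8.65 in iMEF wt/wt. They were 9.14, 9.27, 8.83, 8.50 and 8.85 in MEF fl/fl and 9.50, 9.29, 8.70, 8.66 and 8.81 in MEF wt/wt. In each line all 3 late arrays were below both early ones. Eef1d changed by -0.39 ± 0.10 in iMEFs (adjusted p = 0.0436; not past the threshold with every array set to the same median or after quantile normalization) and -0.57 ± 0.10 in MEFs (adjusted p = 0.000621). Of the 8 members known as TOP mRNAs (Eef1a1, Eef1b2, Eef1d, Eef2, Eif3e, Eif3f, Eif3h and Eif4b), Eef1d was the 1 that passed in either cell type. Eef1akmt1, a lysine methyltransferase of eEF1A, fell in iMEFs, with a change of -1.15 ± 0.26 (adjusted p = 0.0302). Its levels were 9.65, 9.92, 9.41, 8.52 and 7.48 in iMEF fl/fl and 9.73, 9.56, 9.08, 8.86 and 8.04 in iMEF wt/wt, lowest at 96 h in both lines. In MEFs its change was -0.55 ± 0.26 (adjusted p = 0.198).

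**Figure D3:**
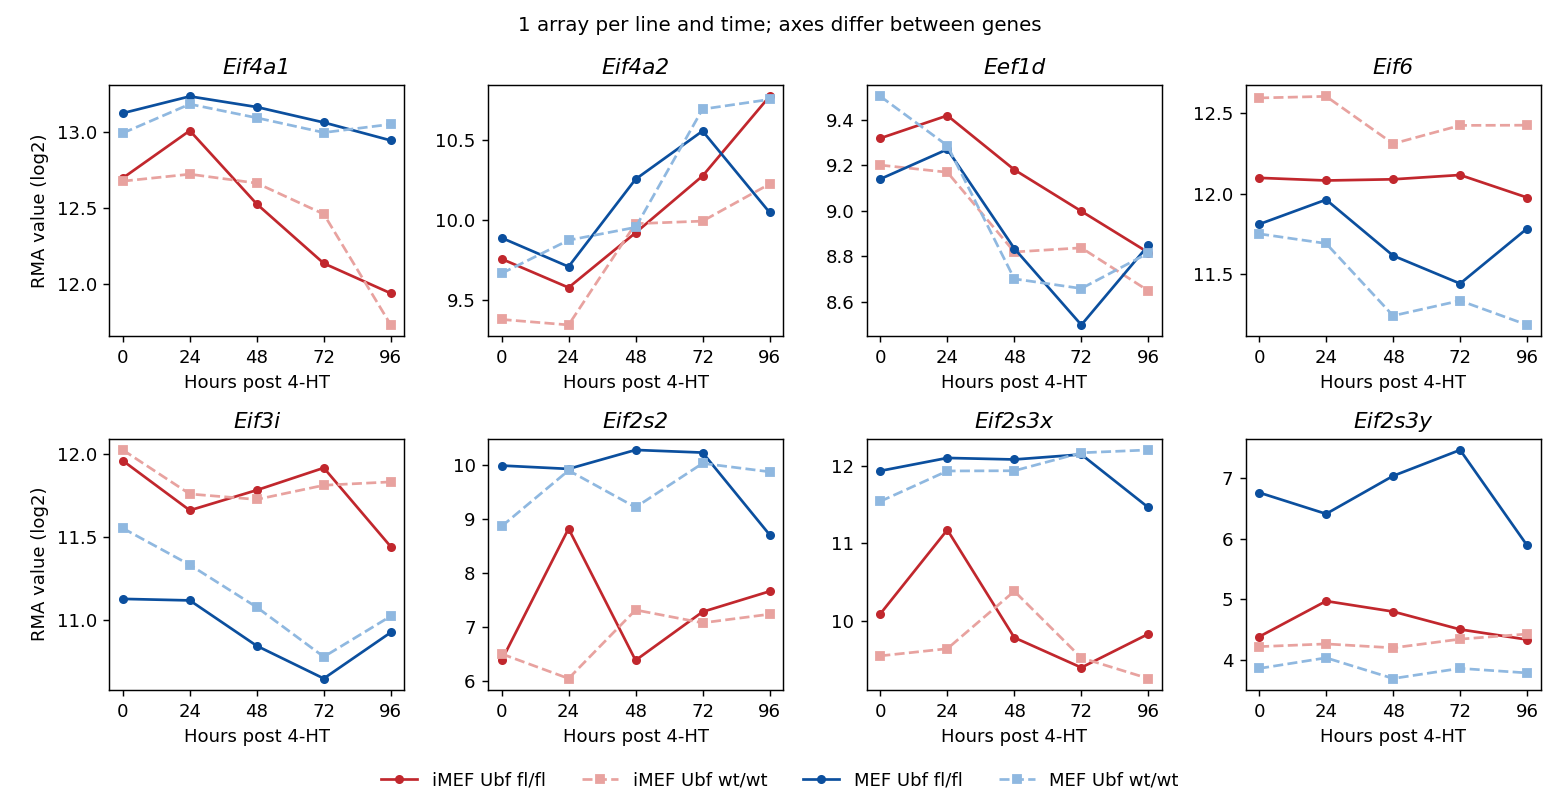
Levels (log2) of 8 members at 0, 24, 48, 72 and 96 h pHT, with 1 point for each array and 1 line for each of the 4 cell lines. Eif4a2 was higher and Eef1d lower at 48 to 96 h than at 0 and 24 h in every line; Eif2s2 stood out in iMEF fl/fl at 24 h, and Eif2s3y was high in the MEF fl/fl line alone.

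Among the members that passed in MEFs, the largest fall beside Eef1d was that of Eif1ad, the eIF1A domain protein, with a change of -0.50 ± 0.08 (adjusted p = 0.00057). Its levels were 9.79, 9.61, 9.25, 9.13 and 9.26 in MEF fl/fl and 9.78, 9.74, 9.34, 9.13 and 9.30 in MEF wt/wt. All late arrays lay below all early ones in both lines. Eif6 also fell, with a change of -0.37 ± 0.08 (adjusted p = 0.00542), with 11.81, 11.96, 11.62, 11.44 and 11.78 in MEF fl/fl and 11.75, 11.69, 11.24, 11.34 and 11.19 in MEF wt/wt. The 3 subunits of eIF3 that fell were Eif3i, with a change of -0.40 ± 0.11 (adjusted p = 0.0216), Eif3l, with -0.34 ± 0.10 (adjusted p = 0.0254) and Eif3d, with -0.33 ± 0.08 (adjusted p = 0.0118). Eif3i had 11.13, 11.12, 10.84, 10.65 and 10.92 in MEF fl/fl and 11.55, 11.33, 11.08, 10.78 and 11.02 in MEF wt/wt, with the late arrays below the early ones in each line. The others, given as their changes, were Eefsec at -0.39, Eef1akmt3, another methyltransferase of eEF1A, at -0.36, and Eif5a, the hypusine-bearing factor that relieves stalled ribosomes, at -0.34 (adjusted p of 0.0182, 0.0308 and 0.0244). Eef1akmt3 did not pass once every array had been set to the same median, and a second probe set of Eif5a gave -0.25. Without MEF wt/wt at 0 h 3 members passed in MEFs, Eef1d, Eif1ad and Eif6. With all 3 arrays that stood apart left out 4 did, Eef1d, Eif1ad, Eif6 and Eefsec. The calls of Eif4a2, Eif3i, Eif3l, Eif3d, Eif5a and Eef1akmt3 in MEFs were lost in both cases.

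Proliferation markers moved with these falls. In MEFs 15 of 15 fell, with a median change of -1.90, from a median level of 10.51 at early times to 7.72 at late times in fl/fl and from 10.74 to 8.69 in wt/wt. In iMEFs 1 of 15 fell, Rrm2, a subunit of ribonucleotide reductase, by 0.85 on the log2 scale. Their part in the changes of the factors was not tested.

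**Figure D4:**
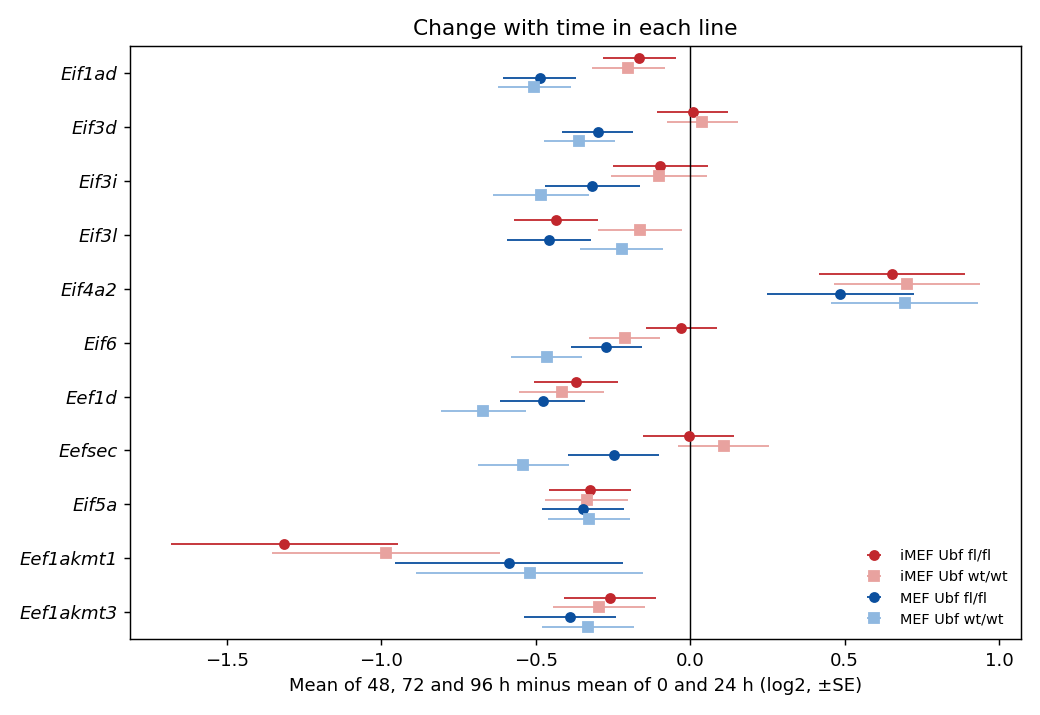
Change with time, as the mean log2 level at 48, 72 and 96 h minus that at 0 and 24 h, in each of the 4 lines for the 11 members that passed the test in iMEFs or in MEFs. Eif4a2 is above 0 and Eef1d below 0 in each line, and Eef1akmt1 is the lowest in both iMEF lines.

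Other genes of the pathway were taken from lists of related factors. In the late effects 0 genes of these lists passed in either cell type. The counts over time are to be read beside the 7.18% of all genes that fell in MEFs and the 0.864% that fell in iMEFs. In MEFs 4 of 18 cytosolic tRNA synthetases fell over time, among them Vars with a change of -0.84 ± 0.11 (adjusted p = 3.5e-05), Mars1 with -0.55 and Yars with -0.46. Of 9 mitochondrial translation factors 2 fell, Tsfm with -0.37 and Tufm with -0.36, and of 7 enzymes that make hypusine or diphthamide 1 did, Dohh, the last enzyme of hypusine synthesis, with -0.48. In iMEFs Dph3, which takes part in diphthamide synthesis on eEF2, fell, with a change of -0.35.

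The third comparison was between the cell types, iMEFs minus MEFs, each as the mean of 2 lines. Here 13 of 56 members were higher in iMEFs, 23.2% against 35.1% of all genes, and 20 were lower, 35.7% against 31.2% of all genes. With every array set to the same median the split was 21 higher and 17 lower, with 30 members in both sets of calls, and no called member changed direction. The members that lost the call were Eef1a1, Eef1e1 and Eif3c. The levels of 13 of 56 members (23.2%) did not overlap between the 10 iMEF and the 10 MEF arrays, against 25.6% of all genes. Of these, 3 were above in iMEFs (Eefsec, Eif3d and Eif6) and 10 below (Eef1a1, Eif1a, Eif2s3x, Eif3e, Eif3m, Eif4e3, Eif4g2, Eif4g3, Eif5 and Eif5b). Markers of cell state moved with this comparison. All 10 macrophage markers were lower in iMEFs, led by Lyz2 at -6.99, and 11 of 15 proliferation markers were higher, led by Mcm5 at 2.62. Their part in the differences between cell types was not tested.

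The lower members were led by Eif2s2 and Eif2s3x, genes of eIF2 subunits. Eif2s2 had a lowest, median and highest level of 6.04, 7.15 and 8.81 over the 10 iMEF arrays and of 8.70, 9.90 and 10.27 over the 10 MEF arrays, overlapping through the iMEF fl/fl array at 24 h and the MEF fl/fl array at 96 h. The difference was -2.63 ± 0.19 (adjusted p = 0.000948), and -1.51 with a second probe set. Eif2s3x had 9.25, 9.71 and 11.18 in iMEFs and 11.46, 12.01 and 12.21 in MEFs, without overlap, a difference of -2.09 ± 0.15 (adjusted p = 0.000929). Eif1a, which opens the small subunit for scanning, had 7.10, 7.80 and 8.35 in iMEFs and 8.82, 9.49 and 10.08 in MEFs and differed by -1.72 ± 0.08 (adjusted p = 0.000691). Eif5, the GTPase activator of eIF2, was at -1.52 ± 0.10, Eif2a at -1.45 ± 0.12 and Eif1ax, the X-linked form of eIF1A, at -1.08. Eif5b, the joining factor, was at -1.39.

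The subunits of eIF3 went both ways. Eif3a (-1.64), Eif3m (-1.61), Eif3e (-1.53) and Eif3c (-0.44) were lower in iMEFs, whereas Eif3i (0.75), Eif3d (0.63), Eif3k (0.37) and Eif3f (0.33) were higher. Eif3b, Eif3h and Eif3l missed the threshold, at -0.05, 0.20 and 0.03, and Eif3h passed as higher with arrays set to the same median. Among the cap factors Eif4g2 (-1.64), Eif4g3 (-1.18), Eif4e3 (-0.89), Eif4a1 (-0.63) and Eif4e (-0.63) were lower and Eif4a3 (0.46) was higher. Eif4e is uncertain, since its other probe sets gave 0.37 and -0.08. Of eIF2B, Eif2b4 (0.64), Eif2b2 (0.35) and Eif2b5 (0.29) were higher and Eif2b3 (-0.68) was lower. The remaining higher members were Eef1aknmt (0.45), Eif1ad (0.38) and Eif2d (0.36), a factor of initiation without eIF2 and of recycling.

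The member most above its MEF level in iMEFs was Eefsec, with a lowest, median and highest level of 11.26, 11.48 and 11.61 in iMEFs and 10.13, 10.43 and 10.87 in MEFs. The ranges did not overlap, and the difference was 1.0003 ± 0.09 (adjusted p = 0.00144). Eif6, with 11.98, 12.21 and 12.60 against 11.19, 11.65 and 11.96, differed by 0.69 ± 0.18 (adjusted p = 0.0229). Of the elongation factors, Eif5a2, a form of eIF5A with restricted expression, was lower at -0.70, Eef1e1 at -0.36 and Eef1a1 at -0.32. Without all 3 arrays that stood apart 36 members passed, and with the 0 and 24 h arrays alone 13 did, 1 higher and 12 lower. The CCGGAA letters were in the promoter entries of 7 of 11 members that were higher and 5 of 15 that were lower, and the GGGCGG letters in 8 of 11 and 11 of 15.

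**Figure D5:**
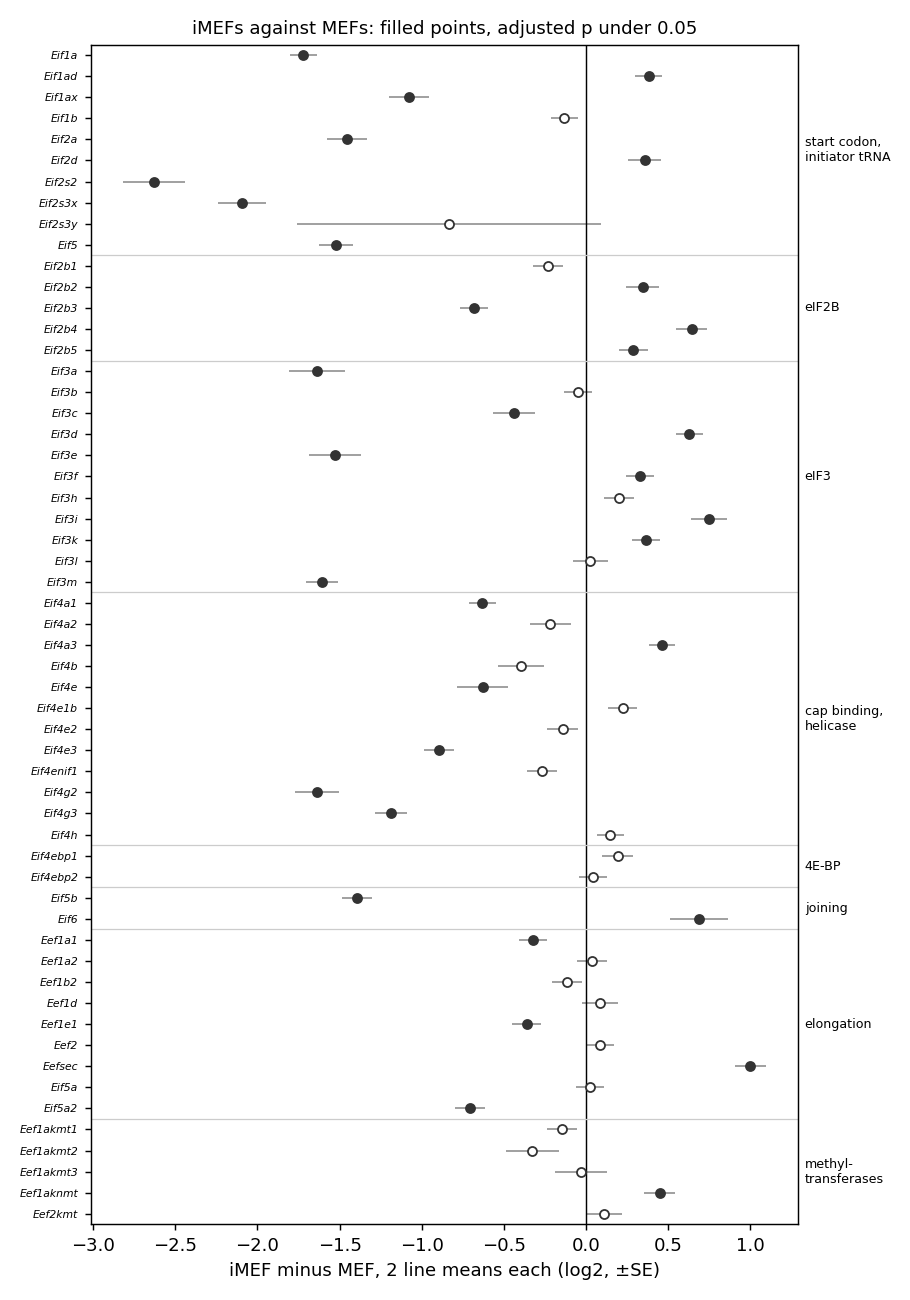
Difference in level between cell types, iMEFs minus MEFs, for each member on the log2 scale with bars of 1 SE, ordered by role, with filled points for members past the test. Eif2s2 is the lowest at -2.63 and Eefsec the highest at 1.0003, and the eIF3 subunits lie on both sides of 0.

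The neighbouring parts of the pathway were compared in the same way, and their counts are to be read beside the 35.1% of all genes that were higher and the 31.2% that were lower. Of the 6 termination and recycling factors 4 were lower in iMEFs, among them Etf1, the release factor eRF1 (-2.10), Abce1, the recycling ATPase (-2.04), and Gspt1, the release factor eRF3a (-1.59), and 1 was higher, Pelo (0.46). Of the 5 reinitiation and scanning helpers 4 were lower, among them Ddx3x (-2.23), Denr (-1.39) and Dhx29 (-1.20). Of the kinases that act on eIF2 and eEF2, 4 of 5 were lower, among them Eif2ak2 (-1.89), Eif2ak3 (-1.05) and Eif2ak1 (-0.80). Of 8 genes through which mTOR and MAP kinases act on translation, 4 were higher, such as Mknk2 (1.20), and 2 lower, such as Pdcd4, an inhibitor of eIF4A (-2.30). Of 7 hypusine and diphthamide enzymes 3 were higher, among them Dhps (1.05) and Dohh (0.70), and 2 lower, among them Dph6 (-1.30). The 18 cytosolic tRNA synthetases split into 6 higher, such as Vars (1.44), and 8 lower, such as Rars (-2.11) and Eprs (-1.82). Of the 4 poly(A)-binding proteins and partners 3 were lower, led by Paip1 (-1.58), and of 9 mitochondrial translation factors 2 were higher and 6 lower, with Tsfm (0.50) and Mtif2 (-1.25) at the ends.

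Last, the genotypes were compared over all 5 times, which also sets 1 line against 1 line, so that line and genotype cannot be told apart. In iMEFs 2 members (3.57%) were lower in fl/fl, where 3.66% of all genes were lower and 6.25% differed in either direction. In MEFs, where 2.47% of all genes differed, no member passed apart from Eif2s3y, which is described below without a test. Eif6 had 12.10, 12.08, 12.09, 12.11 and 11.98 in iMEF fl/fl and 12.59, 12.60, 12.31, 12.42 and 12.42 in iMEF wt/wt, without overlap, a difference of -0.40 ± 0.09 (adjusted p = 0.0232). Eef1akmt3 differed by -0.42 ± 0.09 (adjusted p = 0.0123), with 7.01, 6.96, 6.84, 6.77 and 6.56 in iMEF fl/fl and 7.24, 7.60, 7.05, 7.36 and 6.98 in iMEF wt/wt. Neither difference passed without the 24 h or without the 72 h arrays, and that of Eif6 did not pass without the 0 h or without the 48 h arrays either. Without the terms for time neither passed. In MEFs the Y-linked Eif2s3y had 6.76, 6.41, 7.03, 7.46 and 5.89 in MEF fl/fl and 3.86, 4.04, 3.70, 3.86 and 3.79 in MEF wt/wt, without overlap, a difference of 2.86. In iMEFs it was 4.38, 4.97, 4.80, 4.50 and 4.34 in fl/fl and 4.22, 4.27, 4.20, 4.35 and 4.43 in wt/wt. It was over the 40th percentile on 4 arrays, all of MEF fl/fl, and was kept by the filter through that line alone, so its difference is given as a description. With the 40th percentile of each MEF wt/wt array as the floor, Eif2s3y was at least 1.41-fold higher in MEF fl/fl. The Y-linked genes Uty and Kdm5d were higher in MEF fl/fl as well, by 2.36 and 1.06, whereas the X-inactivation RNA Xist was at 8.17 to 10.88 in all lines. Of 10 macrophage markers 3 passed as higher in MEF fl/fl, Cd53 (1.28), Csf1r (0.98) and Ptprc (0.88). In all 9 were above 0 and 1, Mrc1, was below (-0.26). The part of these markers was not tested. The difference between the genotype effects of the cell types passed for Eif6, where 4.04% of all genes did. Eif2s3y is left out of this count, since it was kept only through 1 line.

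Of the 57 symbols Eif4a3l1, a copy of Eif4a3, did not pass the filter, over the percentile on 0 arrays, and Eif2s3y was just inside on 4 arrays. Eif2s2 passed on 19 arrays and the others on all 20. For 7 members there was more than 1 probe set. Another 11 probe sets named a symbol that fits the name rule, whether or not it was a member, together with another gene. They were not used. Near-identical copies can share probes, so Eif1a, Eif4a3 and the pair Eif2s3x and Eif2s3y are uncertain to that extent. The probe sets used for Eif2s2, Eif3m, Eif4a1, Eif4e and Eif5a have numbers that fall among those of genes on other chromosomes. Whether they read a copy of the gene was not tested, so these members are uncertain as well. Probe sets of a gene disagreed for Eif3m in the late effect in iMEFs, at -0.66 and 0.16, though not between the cell types, at -1.61 and -1.64.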

How the data were processed

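The deposited values were log2 signals that the authors made from Affymetrix whole-transcript arrays with Affymetrix Power Tools 1.14.4, by background correction, quantile normalization with a sketch and probe set summary (RMA), and they were used as given. The methods' detection filter was not applied. RNA of 4 lines at 5 times gave 20 arrays, 1 for each, and their number limits the precision. Of 35556 probe sets, 21789 had 1 symbol in the platform annotation, 1621 had several and 12146 were not listed. That annotation is of an earlier Mouse Gene ST array than the study's text names, and gene names follow it. The probe set with the highest mean stood for a gene. A gene was kept if it lay above the 40th percentile of an array on 2 or more arrays (15272 of 19938 genes).

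limma 3.58.1 in R 4.3.3 was fitted to all genes kept, and p-values were adjusted over all of them with a threshold of 0.05. The methods subtracted wt/wt from fl/fl at each time and set values relative to 0 h. Here the subtraction was kept, with a term for each time in the late and genotype fits, but late times (48 to 96 h) were compared with early ones (0 and 24 h), so that times could stand in for repeats. The fit was tested on simulated data with known changes. Sequences and names came from RefSeq tables of GRCm38.p6, searched with Python 3.11.15. The members named are those past the threshold (up to 8 each way), the extremes of each role in the late effects, known TOP mRNAs, snoRNA hosts, paralog pairs and the sex-linked pair, with up to 3 called genes of each related list. Members and lists were chosen with earlier results of these data known. Alternatives changed the scaling, the filter, the probe set rule, the empirical Bayes settings, the times and lines used. Leaving out 3 arrays, and the fits without terms for time, were added after seeing the data.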

Additional observations from a re-analysis of the deposited data

Results flagged for a closer look

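The genotype difference, fl/fl minus wt/wt over all times, was tested between the cell types, iMEFs minus MEFs, with 4.04% of all genes past the threshold. For Eif2s3y the difference was 0.31 in iMEFs and 2.86 in MEFs, apart by -2.55. This is a description and no test, since Eif2s3y was kept by the filter only through MEF fl/fl and its levels in the other 3 lines lie near the floor of the arrays. For Eif6 it was -0.40 in iMEFs and 0.28 in MEFs, apart by -0.68 ± 0.13 (limma adjusted p = 0.0106). Each genotype was 1 line, so line and genotype cannot be told apart.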

How the results depend on the processing

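No paired analysis was possible because the labels give no replicate numbers, but the late and genotype fits pair the fl/fl and wt/wt arrays by time. Leaving out 1 array there removes its pair from the effect, so each array was also left out without the terms for time. The late effects passed for 0 members under every alternative run, except 7 in iMEFs without the 96 h arrays and 3 in iMEFs without the 96 h array of MEF fl/fl. The count in iMEFs over time (3) became 0 without the 24 h arrays, without the 72 h arrays, with 24 h counted as late, with iMEFs alone, with wt/wt alone, without the 24 h array of iMEF fl/fl and without all 3 arrays that stood apart, 1 without the 96 h arrays, with fl/fl alone or without the 0 h array of MEF wt/wt, and 14 without the 48 h arrays. The count in MEFs over time (10) became 2 without the 24 h or the 72 h arrays or with fl/fl alone, 0 with 24 h counted as late, 17 without the 96 h arrays, 5 with wt/wt alone, 15 with MEFs alone, 3 without the 0 h array of MEF wt/wt and 4 without all 3. The difference of the change over time between cell types (0) became 2 after quantile normalization and 1 without the 48 h arrays, the 96 h arrays or the 96 h array of MEF fl/fl. The cell type count (33) became 13 with the 0 and 24 h arrays alone, and was 41 (17 higher and 24 lower) with all arrays and the line as a random block. After quantile normalization it split into 16 higher and 18 lower, and the members' median of -0.14 became -0.01, against 0.09 with arrays set to the same median. The genotype count in iMEFs (2) became 1 at the 60th percentile, without the 0 h or the 48 h arrays and without the 24 h array of iMEF fl/fl, and 0 without the 24 h or the 72 h arrays or with iMEFs alone. Without the terms for time it became 0, with all arrays, without the 24 h array of iMEF fl/fl, without the 96 h array of MEF fl/fl and without all 3, and 1 without the 0 h array of MEF wt/wt. In MEFs (1) it became 0 at the 60th percentile, where Eif2s3y is not kept. The cause of these changes was not tested. Late effects turned direction as follows. In iMEFs Eif2s2 became 0.0215, Eif3a 0.0266 and Eif3e 0.0089 without the 24 h arrays, without the 24 h array of iMEF fl/fl or without all 3, and 0.74, 0.39 and 0.24 with 24 h counted as late. Eif4ebp2 became -0.0164 without the 48 h arrays and -0.17 with fl/fl alone. In MEFs Eif2s2 became 0.053 and Eif3m 0.00058 without the 96 h arrays or without the 96 h array of MEF fl/fl. Eif3m became 0.12 with fl/fl alone and Eif2s2 0.0035 without the 0 h array of MEF wt/wt. Without all 3, Eif2s2 became 0.60, Eif2a 0.0743, Eif3a 0.24 and Eif3m 0.13, and without the terms for time as well Eif2s2 became 0.49, Eif3a 0.20 and Eif3m 0.027. The direction of Eif2s2, Eif3a and Eif3e in iMEFs held without the 24 h array of fl/fl in the fit without these terms, at -0.21, -0.0866 and -0.22.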

Other observations

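A probe set named for both Snora28, a snoRNA in an intron of Eif5, and Eif5 itself did not follow the probe set of Eif5 alone. Its levels at 0, 24, 48, 72 and 96 h were 8.46, 7.24, 8.68, 9.78 and 9.24 in iMEF fl/fl and 9.29, 7.87, 8.42, 7.67 and 8.88 in iMEF wt/wt, with the 24 h value of fl/fl at the low end. Between the cell types it was higher in iMEFs by 1.11, against -1.52 for Eif5, and its late effect in iMEFs was 1.64, against -0.62. These values were chosen after they were seen and were not tested.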
